A study of Homo sapiens with 8 samples.

Results

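The 4 families of splicing factors examined here comprised 52 genes in NB4 cells: 11 SR proteins (SRSF), 21 heterogeneous nuclear ribonucleoproteins (HNRNP), 9 subunits of the SF3A and SF3B complexes (SF3) and 11 proteins of the small nuclear ribonucleoproteins (SNRP). They were taken by gene symbol from the 37526 names listed in all 8 libraries, of which 12322 had a summed count of at least 100, the minimum that a member also had to reach. Of the other names with these symbols, 124 HNRNP pseudogenes were left out and 6 names did not reach the minimum, namely SNRPN, SRSF12 and HNRNPCL1 to HNRNPCL4. SNRPN, a paralog of SNRPB, was listed at 0 in all 8 libraries, and so was SNURF, which shares its locus on chromosome 15 (43.9% of the exon length of SNRPN overlaps exons of other genes on the same strand). SRSF12 had 3 counts in all, and HNRNPCL2 had 1.

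RNA-seq was performed in NB4 cells, which derive from acute promyelocytic leukemia (APL) and express PML/RARα. Cells were stably transduced with the lentiviral vector pLVX-shRNA2-Puro, with a control construct (scramble) or with an shRNA against KDM3B (shKDM3B), a histone H3K9 demethylase. Each line was sequenced untreated and after all-trans retinoic acid (ATRA) at 1 µM, which induces differentiation of APL cells (scramble+ATRA and shKDM3B+ATRA). There were 2 libraries in each of the 4 groups, described by the study as replicate experiments without saying whether the cultures were separate, so that p-values measure the spread between these libraries. The control was an empty vector per the labels and a scrambled shRNA per the study, the time in ATRA was given as 24 or 48 h without saying which, and 2 KDM3B shRNA sequences were described without stating which one was sequenced.

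Splicing removes introns in the spliceosome, which is built from small nuclear RNAs and their proteins. The Sm proteins (SNRPB, SNRPD1, SNRPD2, SNRPD3, SNRPE, SNRPF and SNRPG) form the ring around the U1, U2, U4 and U5 RNAs, whereas SF3A and SF3B are parts of the U2 particle that recognize the branch site. SR proteins generally promote exon inclusion from exonic enhancers and HNRNP proteins often oppose it, and mutations of SF3B1 and SRSF2 are recurrent in myeloid neoplasms.

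Total counts on genes ranged from 9708739 to 33017787 a library, and the members held 2.0% to 2.67% of them. The libraries stood apart in the share of reads falling outside annotated genes. This share was 8.49% to 9.62% in the 4 untreated libraries and 9.36% in scramble+ATRA replicate 1, but 50.0% to 51.4% in scramble+ATRA replicate 2 and both shKDM3B+ATRA libraries. KDM3B itself was at 187 and 188 CPM (counts scaled to the TMM-adjusted library size) in scramble against 76.3 and 86.2 in shKDM3B, and at 196 and 121 in scramble+ATRA against 52.5 and 57.4 in shKDM3B+ATRA, log2 fold changes of -1.21 (SE 0.15, edgeR adjusted p = 0.0679) and -1.53 (SE 0.29, edgeR adjusted p = 0.502). Among promyelocyte markers MPO was at 4284 and 5343 CPM in scramble, 8339 and 9518 in shKDM3B, 730 and 616 in scramble+ATRA and 3128 and 2220 in shKDM3B+ATRA, although ELANE, PRTN3 and AZU1 stayed at or below 1.47 CPM in every library, and the summed ATRA differentiation markers were 636 to 637 CPM in scramble, 485 to 496 in shKDM3B, 9234 to 10350 in scramble+ATRA and 4458 to 5176 in shKDM3B+ATRA. Summed markers did not exceed 0.737 CPM for erythroid cells, 7.78 for megakaryocytes, 25.6 for T and B cells and 25.1 for epithelial cells and fibroblasts. The promyelocyte list summed to 4452 to 5534 CPM in scramble, 8554 to 9723 in shKDM3B, 707 to 844 in scramble+ATRA and 2323 to 3224 in shKDM3B+ATRA. The promyelocyte and differentiation sums moved with all 4 comparisons, but the former was mostly MPO, and not every marker followed its sum. CTSG fell like MPO with ATRA, from 105 and 115 CPM in scramble to 4.1 and 2.3 in scramble+ATRA. It was no higher in shKDM3B+ATRA, at 2.0 and 1.7. CD33 was at 63.0 and 74.5 in scramble and 110 and 88.0 in scramble+ATRA, and FCGR2A at 11.7 and 19.05 against 11.3 and 12.1. CD38 was at 116 and 108 in scramble and 136 and 158 in shKDM3B. The part of these markers in the members' values was not tested. In such bulk libraries, fewer cells of a type and less RNA per cell cannot be told apart.

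First, the levels of the members in scramble cells were compared as CPM per kilobase of the canonical transcript. HNRNPA2B1 was the most abundant member, at 882 and 658 CPM per kb in replicates 1 and 2, followed by HNRNPA1 at 638 and 491 and HNRNPH1 at 635 and 434, which overlapped. HNRNPA2B1 and HNRNPA1 encode core hnRNP proteins that package pre-mRNA and repress splice sites. The lowest HNRNP members were HNRNPUL2, at 13.0 and 12.7 CPM per kb, and HNRNPLL, at 19.3 and 17.5, so that the highest and lowest members of this family were far apart in both libraries. Of the exon length of HNRNPUL2, 44.3% overlaps exons of HNRNPUL2-BSCL2 on the same strand, so that its level is uncertain.

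In the SRSF family the highest levels per kb were those of SRSF2, at 328 and 280, SRSF9, at 292 and 262, and SRSF5, at 311 and 214. These libraries overlapped, and the order of the 3 genes was not resolved. SRSF8, a relative of SRSF2, was lowest at 23.8 and 18.7, and SRSF10 was next at 64.7 and 43.2. The canonical transcript of SRSF10 is 7656 bases long for a coding part of 786 bases. Before division by length SRSF10 was at 496 and 331 CPM, against 336 and 302 for SRSF9. Within SF3, SF3B6, which contacts the branch site in the U2 particle, was highest at 206 and 157 CPM per kb and SF3B2 next at 140 and 147, against 35.2 and 37.2 for SF3A1 and 39.3 and 47.0 for SF3A2.

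Among SNRP genes, the Sm genes SNRPF (425 and 334 CPM per kb) and SNRPG (390 and 321) were the highest, with overlapping libraries. SNRPD1 and SNRPB2 were the lowest, at 37.5 and 26.8 for SNRPD1 and 43.3 and 34.0 for SNRPB2. SNRPD1 and SNRPF both encode a subunit of the same ring. However, the canonical transcript of SNRPD1 is 4858 bases long for a coding part of 357 bases, whereas that of SNRPF is 452 bases long, and the level per length rests on this choice of transcript.

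**Figure D1:**
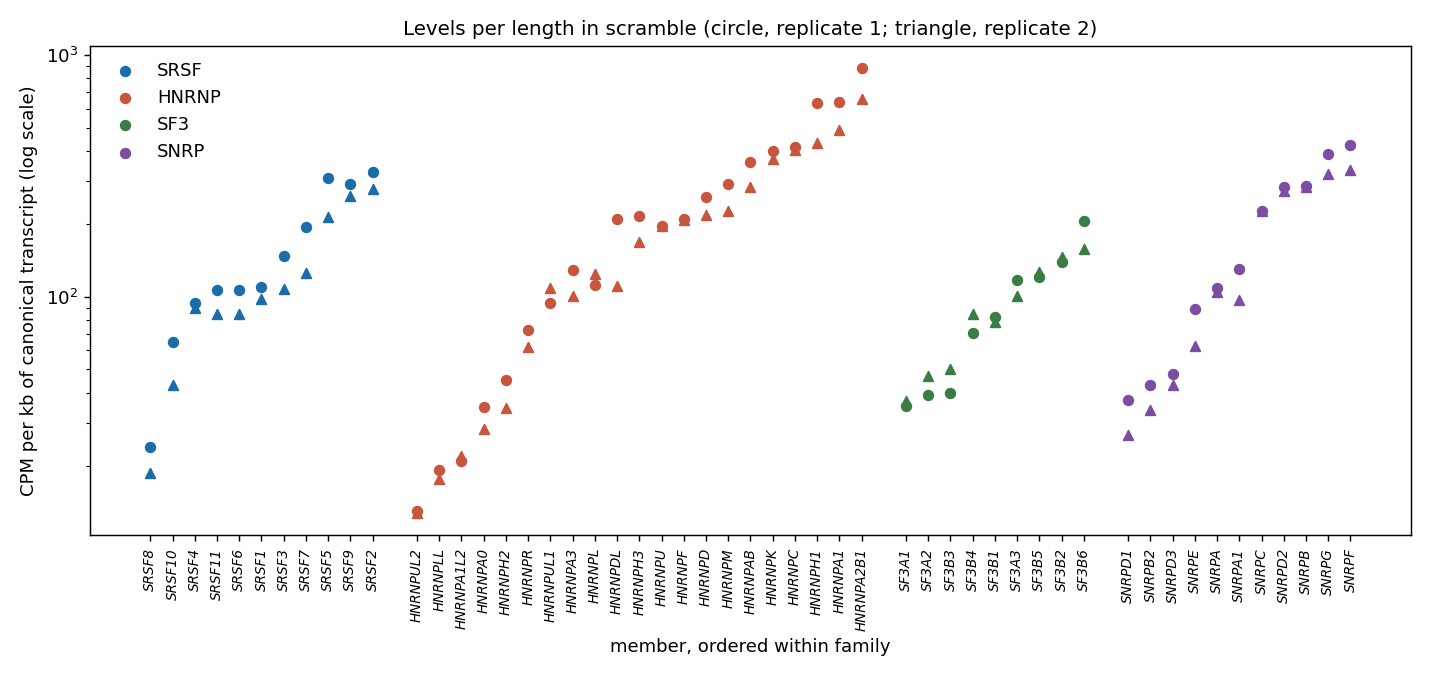
CPM per kilobase of canonical transcript (log axis) of the 52 members in the 2 scramble libraries, ordered by mean within each family. HNRNP members span from 13.0 and 12.7 for HNRNPUL2 to 882 and 658 for HNRNPA2B1, and most circles (replicate 1) lie above their triangles (replicate 2). The exons of HNRNPUL2 partly overlap those of another gene on the same strand.

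The spread between replicates was not the same in all groups. In scramble, 43 of 52 members were higher in replicate 1, with HNRNPDL as the extreme at 1.90-fold. HNRNPDL, a paralog of HNRNPD, was at 917 and 483 CPM in scramble, 694 and 454 in shKDM3B, 532 and 488 in scramble+ATRA and 428 and 416 in shKDM3B+ATRA. The median fold between the replicates of a member was 1.20 in scramble, 1.16 in shKDM3B and scramble+ATRA and 1.05 in shKDM3B+ATRA.

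For the members that passed the call rule below, the promoter sequences are shown because they were called higher or lower with ATRA, a ligand of retinoic acid receptors. RefSeq windows of 300 bases, from 250 before to 50 after a start site (GRCh38.p14), were kept where that start lay within 100 bases of the canonical one, which left 44 of 52 members and 17191 genes in all; SNRPG has none. The windows were chr2:38602879-38603178 (minus strand), chr20:16729776-16730075 (plus strand), chr19:45691904-45692203 (minus strand) and chr6:144095524-144095823 (minus strand), given 5′ to 3′ with capitals marking the matches of the motifs spelled out after them, on either strand, none of which overlapped another in these windows.
HNRNPLL: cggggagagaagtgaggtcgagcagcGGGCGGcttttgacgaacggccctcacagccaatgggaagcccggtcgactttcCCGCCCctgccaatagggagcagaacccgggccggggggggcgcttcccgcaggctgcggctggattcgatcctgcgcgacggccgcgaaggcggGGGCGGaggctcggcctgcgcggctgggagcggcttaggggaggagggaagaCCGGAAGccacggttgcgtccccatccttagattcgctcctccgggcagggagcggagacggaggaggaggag
SNRPB2: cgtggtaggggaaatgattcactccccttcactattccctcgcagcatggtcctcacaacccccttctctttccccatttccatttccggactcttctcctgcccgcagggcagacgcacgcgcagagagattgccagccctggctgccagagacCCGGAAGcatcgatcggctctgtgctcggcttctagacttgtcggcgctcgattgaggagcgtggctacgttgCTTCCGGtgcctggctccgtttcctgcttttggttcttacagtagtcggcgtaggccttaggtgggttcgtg
SNRPD2: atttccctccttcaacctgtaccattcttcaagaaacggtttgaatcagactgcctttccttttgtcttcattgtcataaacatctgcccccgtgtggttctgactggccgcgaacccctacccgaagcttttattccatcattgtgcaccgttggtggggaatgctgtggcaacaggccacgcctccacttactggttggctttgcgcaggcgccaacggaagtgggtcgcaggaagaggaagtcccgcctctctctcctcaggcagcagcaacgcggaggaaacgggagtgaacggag
SF3B5: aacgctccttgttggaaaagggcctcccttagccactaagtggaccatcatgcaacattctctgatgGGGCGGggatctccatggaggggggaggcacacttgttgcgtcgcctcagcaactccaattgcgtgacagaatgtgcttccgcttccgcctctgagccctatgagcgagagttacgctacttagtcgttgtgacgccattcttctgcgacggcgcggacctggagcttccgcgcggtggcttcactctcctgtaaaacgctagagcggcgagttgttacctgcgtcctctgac
The core motif bound by retinoic acid receptors, searched as AGGTCA, was in none of these windows, in 6.82% of the members' windows and in 11.8% of all 17191. The GC box, searched as GGGCGG, was in 61.4% of the members' windows and 58.5% of all, with 3 matches in HNRNPLL, 1 in SF3B5 and none in SNRPB2 or SNRPD2. The core of ETS sites, searched as CCGGAAG, lay 23 bases before the start of HNRNPLL and 95 and 22 bases before that of SNRPB2. It was held by 6 of 8 SF3 windows and 4 of 8 SNRP windows, against 2 of 18 HNRNP and 2 of 10 SRSF windows and 14% of all. The E-box, searched as CACGTG, was in 6 of 44 members' windows, 5 of them HNRNP, and in 8.55% of all. The TATA box, searched as TATAAA, was in 7 of 44 and in 9.74% of all. These matches are letters in the sequence, and binding was not measured.

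Next, the effect of silencing KDM3B without ATRA was examined. No member was called between shKDM3B and scramble, at an unadjusted edgeR quasi-likelihood P under 0.05 with a fold of at least 1.5. By the same rule 3.48% of all 13855 genes tested were called higher and 3.53% lower (7.01% in either direction), and 4.47% in either direction among the 6978 genes at or above the level of the lowest member. No member had an unadjusted P under 0.05 in this edgeR fit either, against 10.2% of all genes, and none an adjusted p under 0.05, against 0.0217% of all genes, each of them lower. DESeq2 also called 0, and no member differed by more than 1.23-fold (SNRPE). The 95% interval of a difference reached a median of 0.38 to either side on the log2 scale, and for 36 members the interval lay inside a 1.5-fold change in either direction, so that larger differences were not resolved for the other 16.

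The members leaned to lower values in shKDM3B. In 45 of 52 the log2 fold change was negative, with a median of -0.15 against 0.00 over all genes, and the family medians were -0.18 for SRSF, -0.13 for HNRNP, -0.18 for SF3 and -0.15 for SNRP. The libraries did not overlap for 16 members lower and 1 higher in shKDM3B (19.6% and 21.2% over all genes, 40.9% together). The higher scramble replicate 1 described above moved with this lean, and its part was not tested.

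A set of 11 core members was described whatever their values. SRSF1, an SR protein that also acts as an oncoprotein, was at 584 and 525 CPM in scramble and 614 and 542 in shKDM3B, a log2 fold change of 0.06 (SE 0.15), with overlapping libraries. SF3B1, the largest SF3B subunit, was at 532 and 506 against 571 and 540 CPM, a log2 fold change of 0.10 (SE 0.14), the shKDM3B libraries being slightly higher without overlap. HNRNPU, a nuclear scaffold protein, had a log2 fold change of 0.03 (SE 0.13), HNRNPK of -0.04 (SE 0.13) and HNRNPC of -0.13 (SE 0.13). The other core members had values of -0.14 (SE 0.17) for HNRNPA1, -0.06 (SE 0.19) for HNRNPA2B1, -0.18 (SE 0.15) for SRSF2, -0.23 (SE 0.19) for SRSF3, -0.19 (SE 0.15) for SF3A3 and -0.15 (SE 0.14) for SNRPB. The outermost values in each family were -0.28 for SRSF10, -0.29 for HNRNPDL, 0.21 for SF3B3, -0.23 for SF3B4, 0.08 for SNRPD1 and -0.30 for SNRPE, none of which passed the main edgeR test. In a fit that also allowed for the replicate number, all of these but SNRPD1 had an unadjusted edgeR P of 0.0115 to 0.0396. Their edgeR adjusted p there was 0.0928 or more, and none reached the fold limit. With single libraries left out these values ranged widely, from -0.53 to -0.015 for SNRPE, from -0.49 to -0.021 for SF3B4 and from 0.054 to 0.40 for SF3B3. HNRNPDL was the one member that came to be called when a library was left out, at -0.67 without scramble replicate 2 and -0.63 without shKDM3B replicate 1, but at 0.25 and uncalled without scramble replicate 1.

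Then, the response to ATRA in control cells was determined. The untreated and treated files list different sets of names, 56470 and 56609 with 37526 in common, so that their annotation may differ, which cannot be told apart from ATRA in either ATRA comparison. HNRNPLL, a paralog of HNRNPL known for regulating the alternative exons of CD45 in lymphocytes, rose 3.27-fold. It was at 79.9 and 72.7 CPM in scramble and 217 and 270 in scramble+ATRA, and all ATRA libraries were far above all untreated ones. The log2 fold change was 1.71 (SE 0.22, edgeR adjusted p = 0.00339). With scramble+ATRA replicate 1 alone, whose share of reads outside genes was like that of the untreated libraries, it was 1.52. HNRNPLL lies on chromosome 2 (chr2:38561969-38603586, hg38, minus strand), and none of its exons overlaps an exon of another gene.

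HNRNPL, its paralog, did not rise: 241 and 265 CPM in scramble and 232 and 150 in scramble+ATRA gave a log2 fold change of -0.37 (SE 0.25), and the libraries did not overlap. HNRNPL was called lower without scramble+ATRA replicate 1. That fit leaves replicate 2, with 50.0% of reads outside genes, far more than in the untreated libraries. In the shKDM3B+ATRA libraries, with a like share, HNRNPL was at 183 and 182 CPM, and the part of this share was not tested. SNRPB2, the U2 protein B″ that binds a stem-loop of U2 RNA, was at 104 and 81.9 CPM in scramble and 116 and 158 in scramble+ATRA. Both ATRA libraries were above both untreated libraries, with a log2 fold change of 0.60 (SE 0.25, edgeR adjusted p = 0.172), just past the 1.5-fold limit with an unadjusted P under 0.05. Its call was lost without scramble replicate 1 (log2 fold change 0.75, edgeR adjusted p = 0.535), without scramble replicate 2 (0.42, edgeR adjusted p = 0.71) and without scramble+ATRA replicate 2 (0.33, edgeR adjusted p = 0.418). With scaling by library size alone it was lost as well (0.50, edgeR adjusted p = 0.236). In fits with a library left out, the lone library left in a group is assumed to vary like the others.

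**Figure D2:**
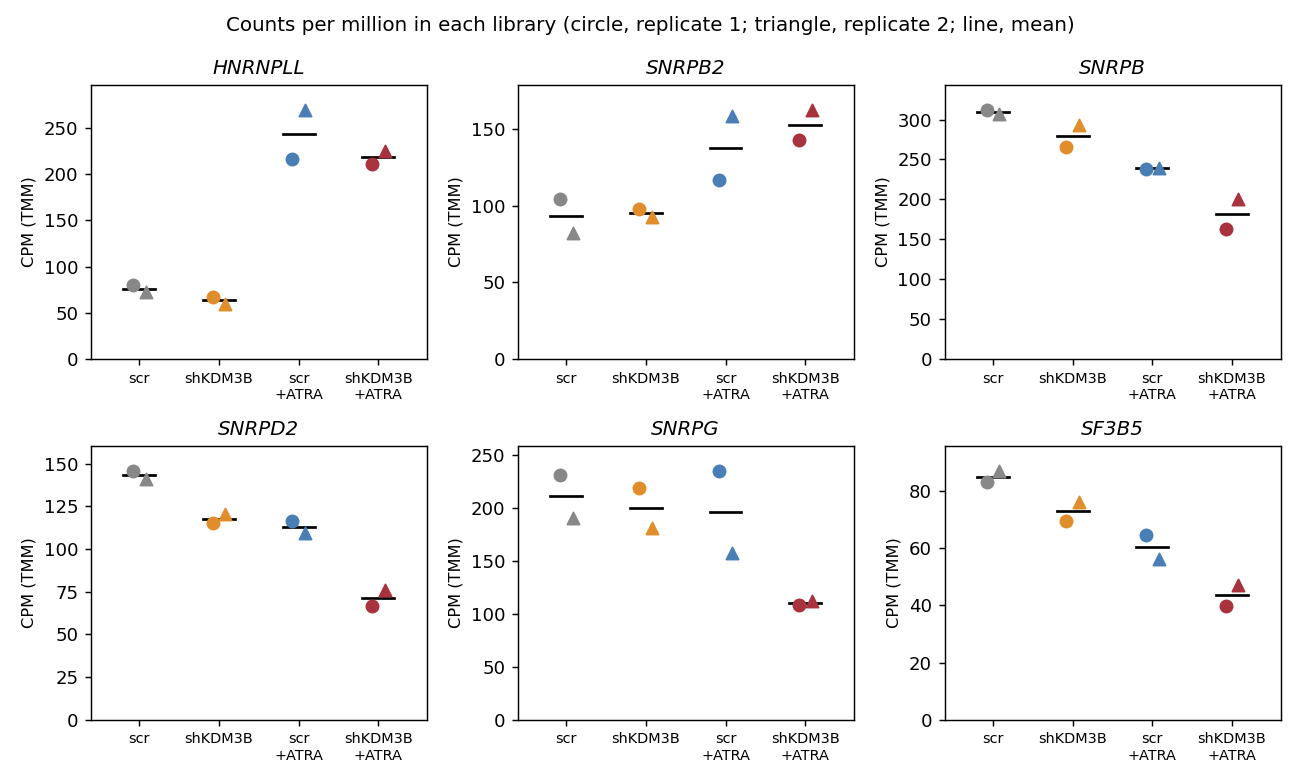
CPM (TMM-scaled, linear axis from 0) in each of the 8 libraries for 6 members, with a circle for replicate 1, a triangle for replicate 2 and a line at the mean of each group. HNRNPLL separates ATRA from untreated libraries (211 to 270 against 59.4 to 79.9), and SNRPG is lowest in shKDM3B+ATRA (108 and 112).

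These were the 2 members called with ATRA in control cells, both higher, while 15.0% of all 12429 genes tested were called higher and 10.8% lower (25.9% in either direction). The larger share of higher calls over all genes, 58.1% of calls, did not hold with scaling by library size alone, where it was 48.9%. HNRNPLL was the one member with an adjusted p under 0.05, against 12.9% of all genes (7.84% higher and 5.06% lower). Without scramble replicate 1 or replicate 2 it kept its call, but with an edgeR adjusted p of 0.234 or 0.251. No further member had an unadjusted P under 0.05, against 27.6% of all genes. Among genes at or above the level of the lowest member, 22.0% were called in either direction. The median log2 fold change of the members was -0.11 against 0.02 over all genes, and 50 of 52 stayed within 1.5-fold. The 95% intervals reached a median of 0.51 to either side, and 14 members had an interval inside a 1.5-fold change. The libraries did not overlap for 18 members lower and 2 higher with ATRA (30.2% and 27.2% over all genes, 57.4% together).

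The other extremes of each family in control cells did not pass the test. HNRNPA1L2, a relative of HNRNPA1, was lowest at -0.50 (SE 0.22), but its exons lie wholly within those of another gene on the same strand, and it may share reads with HNRNPA1, so that its value is uncertain. It was called lower with scaling by library size alone. SRSF10, an SR protein that can repress splicing, was at -0.39 (SE 0.25), SF3B5 at -0.46 (SE 0.20) and SNRPB at -0.34 (SE 0.19). SRSF8 at 0.20 (SE 0.24) and SF3A3 at 0.24 (SE 0.22) were the highest of their families. The 11 core members lay between SNRPB and SF3A3.

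In shKDM3B cells, ATRA was followed by 5 calls. HNRNPLL rose again, from 67.5 and 59.4 CPM in shKDM3B to 211 and 226 in shKDM3B+ATRA. This was a log2 fold change of 1.84 (SE 0.13, edgeR adjusted p = 3.95e-06), with no overlap of libraries. SNRPB2 rose from 97.7 and 92.6 to 143 and 162 CPM, a log2 fold change of 0.74 (SE 0.13, edgeR adjusted p = 0.00116), again with no overlap. The response differed between the lines by 0.11 (SE 0.22) for HNRNPLL and 0.12 (SE 0.28) for SNRPB2 on the log2 scale, with intervals from -0.41 to 0.63 and from -0.53 to 0.77.

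The 3 members called lower encode small subunits. SNRPG, the Sm protein G, was at 219 and 182 CPM in shKDM3B and 108 and 112 in shKDM3B+ATRA (log2 fold change -0.81, SE 0.13, edgeR adjusted p = 0.000914). SNRPD2, the Sm protein D2, was at 115 and 120 against 66.4 and 75.8 CPM (log2 fold change -0.67, SE 0.13, edgeR adjusted p = 0.00225). SF3B5, a small subunit of SF3B, was at 69.5 and 76.2 against 39.8 and 47.0 CPM (log2 fold change -0.69, SE 0.15, edgeR adjusted p = 0.0037). In all 3 both ATRA libraries were below both untreated ones. By the same rule, 24.0% of all 12756 genes tested were called higher and 18.3% lower (42.2% in either direction), and 32.0% in either direction at or above the level of the lowest member, both more than the 5 of 52 members. Without shKDM3B replicate 1, 9 members were called, the same 5 among them.

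Without the fold limit, 12 members had an adjusted p under 0.05, 3 higher and 9 lower, against 50.0% of all genes (27.5% higher and 22.5% lower), and 18 had an unadjusted P under 0.05, against 56.7% of all genes. The 9 lower members included 6 of 11 SNRP genes. SNRPB, the Sm protein B, was at 265 and 293 CPM in shKDM3B and 163 and 201 in shKDM3B+ATRA (log2 fold change -0.57, SE 0.14), with no overlap. SNRPC, a U1 protein, had a log2 fold change of -0.49 (SE 0.13), SNRPD1 of -0.47 (SE 0.15) and SNRPD3 of -0.32 (SE 0.12). SNRPF at 0.02 (SE 0.13) and SNRPE at 0.21 (SE 0.15), of the same ring, had no adjusted p under 0.05. The other members with an adjusted p under 0.05 were SF3B5, HNRNPA0 at -0.48 (SE 0.12), SRSF1 at -0.32 (SE 0.12) and SRSF5 at 0.36 (SE 0.13). In 1 fit of all 8 libraries, the edgeR adjusted p was no longer under 0.05 for SNRPD1 (0.107), SNRPD3 (0.0691), SRSF1 (0.0645) and SRSF5 (0.27). Without shKDM3B+ATRA replicate 1, it was over 0.05 for 9 of the 12, from 0.0655 for SNRPD2 to 0.302 for SRSF5. HNRNPLL, SNRPB2 and SNRPG kept an adjusted p under 0.05 in every alternative run. The family medians of the log2 fold change were 0.08 for SRSF, -0.12 for HNRNP, -0.17 for SF3 and -0.32 for SNRP, against 0.04 over all genes. In SF3, SF3A3, a subunit of SF3A, was highest at 0.29 (SE 0.11). In this comparison the share of reads outside genes was 51.0% to 51.4% in the ATRA libraries against about 9% in the untreated ones, and the treatment and this share cannot be told apart. The libraries did not overlap for 27 members lower and 8 higher with ATRA (38.7% and 38.0% over all genes, 76.7% together).

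**Figure D3:**
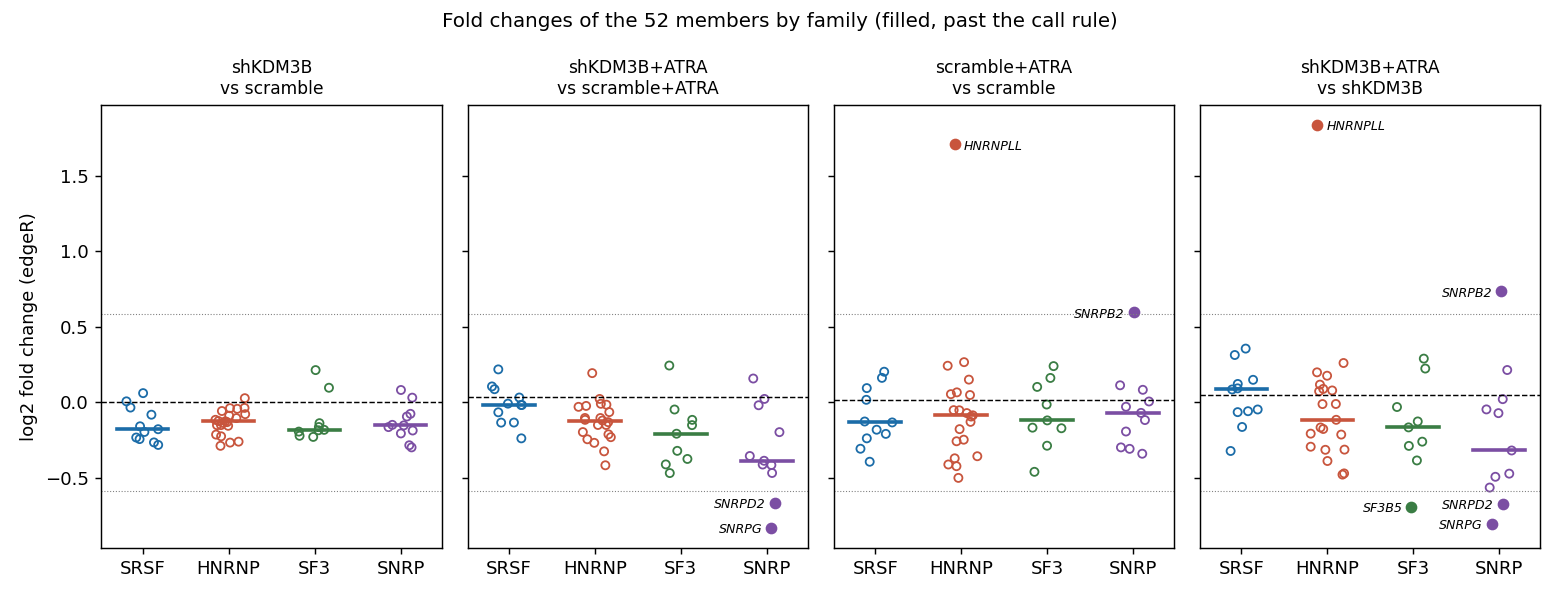
Log2 fold changes (edgeR) of the 52 members by family in the 4 comparisons, with filled points for called members, a bar at each family median, a dashed line at the median of all genes and dotted lines at a fold of 1.5. No point is filled for shKDM3B against scramble, and HNRNPLL stands apart in both ATRA comparisons (1.71 and 1.84).

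The same genes were then compared between shKDM3B+ATRA and scramble+ATRA. The 2 members called, both Sm genes, were lower in shKDM3B+ATRA, while 2.42% of all 14281 genes were called higher and 4.37% lower (6.79% in either direction, and 7.03% at or above the level of the lowest member). SNRPG was at 235 and 158 CPM in scramble+ATRA and 108 and 112 in shKDM3B+ATRA, and SNRPD2 at 117 and 109 against 66.4 and 75.8. Neither gene overlapped between the groups, but the scramble+ATRA libraries of SNRPG were far apart. The log2 fold change was -0.83 for SNRPG (SE 0.24, edgeR adjusted p = 0.502) and -0.67 for SNRPD2 (SE 0.13, edgeR adjusted p = 0.502). No gene at all had an adjusted p under 0.05 in edgeR, and 1383 (9.68%) had an unadjusted P under 0.05. The DESeq2 adjusted p was 0.0102 for SNRPD2 and 0.0823 for SNRPG.

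These calls depended on single libraries. Without scramble+ATRA replicate 1, which leaves 3 libraries with a like share of reads outside genes, SNRPD2 was still called at -0.61, whereas SNRPG was at -0.50 and below the fold limit. Without scramble+ATRA replicate 2, 5 members were called lower, adding HNRNPAB, HNRNPUL1 and SF3A2. Without shKDM3B+ATRA replicate 1 or replicate 2, none was called, with log2 fold changes of -0.80 and -0.85 for SNRPG and -0.57 and -0.76 for SNRPD2.

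A further 4 members were lower at an unadjusted P under 0.05 without reaching the fold limit: SNRPD3 (log2 fold change -0.47, SE 0.12), SNRPC (-0.42, SE 0.13), SF3B4 (-0.38, SE 0.11) and SF3B6 (-0.32, SE 0.11). With SNRPG and SNRPD2 these were 6 of 52 members, all lower, against 5.76% of all genes lower and 9.68% in either direction. Of the 6, SNRPD2, SNRPG, SNRPC and SF3B6 have canonical transcripts under 1000 bases, and of all 580 such genes tested 166 had an unadjusted edgeR P under 0.05 and were lower. The family medians were -0.02 for SRSF, -0.12 for HNRNP, -0.21 for SF3 and -0.39 for SNRP, against 0.03 over all genes. The largest values in the other direction were 0.24 for SF3B1 (SE 0.13), 0.22 for SRSF11 (SE 0.11), 0.19 for HNRNPH1 (SE 0.17) and 0.16 for SNRPB2 (SE 0.20), and the lowest of the other families were -0.42 for HNRNPAB (SE 0.18), -0.47 for SF3B5 (SE 0.17) and -0.24 for SRSF4 (SE 0.19). SRSF2 and SRSF3 were at 0.09 (SE 0.18) and -0.02 (SE 0.21), HNRNPA1 at -0.02 (SE 0.14) and HNRNPA2B1 at -0.12 (SE 0.12), with overlapping libraries for SRSF2, SRSF3 and HNRNPA1. Of the other core members, SRSF1 was at -0.07 (SE 0.11), HNRNPC at -0.23 (SE 0.13), HNRNPK at -0.01 (SE 0.12), HNRNPU at -0.02 (SE 0.14), SF3A3 at -0.15 (SE 0.17) and SNRPB at -0.39 (SE 0.15). The libraries did not overlap for 23 members lower and 2 higher (26.0% and 24.1% over all genes, 50.1% together). The comparisons share libraries, so that a low value in shKDM3B+ATRA enters both of those that use this group.

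The 3 members called lower in any comparison (SNRPG, SNRPD2 and SF3B5) were among the shortest of the 52. The canonical transcript was under 1000 bases for 6 members: SNRPF with 452 bases, SNRPD2 with 515, SNRPG with 594, SF3B6 with 651, SF3B5 with 690 and SNRPC with 806. Between shKDM3B+ATRA and scramble+ATRA their median log2 fold change was -0.44, against -0.12 for the 46 longer members. The 580 protein-coding genes tested with a canonical transcript under 1000 bases had a median of -0.41, 115 called lower and 0 called higher, whereas the 10135 longer ones had a median of 0.00, with 428 called lower and 272 higher. Over the 52 members, Spearman's rho between length and log2 fold change was 0.45 here, 0.33 for shKDM3B against scramble, -0.06 for scramble+ATRA against scramble and 0.08 for shKDM3B+ATRA against shKDM3B, as a description over genes of the same libraries. Between shKDM3B+ATRA and shKDM3B, the 6 short members had a median of -0.58 and all 589 short genes one of -0.12. Between scramble+ATRA and scramble, these medians were -0.21 and 0.07. In the test of the difference in ATRA response between the lines, the 6 short members had a median of -0.23, and all 625 short genes one of -0.26, with 68 called lower and 4 higher. The part of transcript length or of RNA fragment recovery in the lower values of SNRPG and SNRPD2 was not tested.

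A test of the difference in ATRA response between the lines called 1 member, SNRPG, against 1.27% of all 13528 genes higher and 2.72% lower (3.99% in either direction, and 3.55% at or above the level of the lowest member). Of these calls 31.9% were higher, or 45.6% with scaling by library size alone, under which SNRPG was not called. The difference for SNRPG lay between -0.76 and -0.69 in the alternatives that kept every library. Its ATRA response was 0.76 lower on the log2 scale in shKDM3B than in scramble (SE 0.31, edgeR adjusted p = 1.0). This call remained without scramble replicate 1 (-0.91) or scramble+ATRA replicate 2 (-1.02) and was lost without any of the other 6 libraries, with -0.43 without scramble+ATRA replicate 1. The response of SNRPG in control cells was -0.07 (SE 0.25), its scramble libraries being at 231 and 191 CPM. No gene had an adjusted p under 0.05 in this edgeR test, and 607 (4.49%) had an unadjusted P under 0.05. The median over the members was 0.00, with family medians of 0.21 for SRSF, 0.01 for HNRNP, -0.15 for SF3 and -0.21 for SNRP.

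Finally, 7 lists of genes acting with these families were examined. Of 14 genes for Sm ring assembly, 0 were called higher and 4 lower with ATRA in each line, GEMIN5, PRMT5 and SNUPN in both. Over all genes, 10.8% were called lower in control cells and 18.3% in shKDM3B cells, and 25.9% and 42.2% in either direction. GEMIN5, which recognizes the snRNA for the SMN complex, fell in both lines. It was at 98.4 and 132 CPM in scramble, 58.6 and 33.2 in scramble+ATRA, 144 and 148 in shKDM3B and 53.6 and 44.3 in shKDM3B+ATRA (log2 fold change -1.30, edgeR adjusted p = 0.0363, and -1.52, edgeR adjusted p = 2.03e-05). PRMT5, which methylates Sm proteins, was at -0.70 (edgeR adjusted p = 0.0852) in control cells and -0.85 (edgeR adjusted p = 0.000395) in shKDM3B cells, and SNUPN, an import adaptor for snRNPs, at -0.63 and -0.77. GEMIN4 was called in control cells alone (-0.59), with -0.56 in shKDM3B cells. SMN2 was called higher in shKDM3B than in scramble (log2 fold change 1.49) and lower with ATRA in shKDM3B cells (-1.38), but at 1.65 to 7.86 CPM and with reads shared with its near-identical copy SMN1, and its value is uncertain.

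Among 9 tested kinases, phosphatases and importers of SR proteins, 2 were called higher with ATRA in control cells and 1 in shKDM3B cells, against 15.0% and 24.0% of all genes. CLK1, a kinase that phosphorylates SR proteins, was at 74.5 and 55.2 CPM in scramble and 133 and 120 in scramble+ATRA (log2 fold change 1.00, edgeR adjusted p = 0.0303), and at 0.70 (edgeR adjusted p = 0.0426) in shKDM3B cells. CLK3 was at 0.72 in control cells (edgeR adjusted p = 0.105).

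Of 14 other genes of the U2 particle and branch site recognition, ZRSR2, which serves minor introns, was called higher in control cells (log2 fold change 1.12, edgeR adjusted p = 0.0247) and lower in shKDM3B+ATRA than in scramble+ATRA (-0.71, edgeR adjusted p = 0.503), and PUF60 and CHERP were each called lower once (-1.39 in control cells and -0.77 in shKDM3B cells). Of 16 tested U1, U5 and tri-snRNP genes, SNRNP27 was called higher with ATRA in both lines (0.75 and 0.97), and PPIH and SNRNP70 lower in shKDM3B cells (-0.79 and -0.66). PPIH was also called lower in shKDM3B+ATRA than in scramble+ATRA (-0.68) and in the test of the difference (-0.64). SNRNP70, the U1-70K protein, was at 394 CPM in scramble+ATRA replicate 1 but at 208 in replicate 2 and at 187 and 194 in shKDM3B+ATRA, so that it was low in the 3 libraries with many reads outside genes, and so was SRRM2, an SR-related protein, at 1434 against 440, 726 and 640 CPM. CHERP was likewise at 105.5 CPM in scramble+ATRA replicate 1 against 63.1, 74.0 and 67.0 in those libraries. The part of this share in these values was not tested. Of 20 SR-related genes, SRRM2 was the one called (log2 fold change -1.02 in shKDM3B cells). Of 16 other hnRNP genes, PTBP3 was called higher in control cells (0.65, edgeR adjusted p = 0.0739) and was just under the fold limit in shKDM3B cells (0.58, edgeR adjusted p = 0.00604), where PCBP2 was called higher (0.69). PCBP2 was at 142 CPM in scramble+ATRA replicate 1, but at 336 in replicate 2 and 241 and 260 in shKDM3B+ATRA. It was thus high in the 3 libraries with many reads outside genes, and the part of this share was not tested. Of 9 tested LSm genes, none was called in any comparison (0 to 3 with an unadjusted edgeR P under 0.05 in each). Over the 98 genes tested in the 7 lists, 10 were called with ATRA in control cells and 11 in shKDM3B cells, against 25.9% and 42.2% of all genes. Between shKDM3B+ATRA and scramble+ATRA 2 were called, against 6.79%, and without ATRA 1 was called (SMN2), against 7.01%.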

How the data were processed

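RNA-seq was available for 8 libraries of NB4 cells, in 4 groups taken from the labels. According to the study's methods, the authors used Trim Galore for trimming, HISAT2 for alignment (hg38) and HTSeq for counting (versions not given in the sources used here). The deposited files hold whole-number counts per gene without normalization, for 56470 names in untreated and 56609 in treated libraries, of which 37526 were shared, so that the annotation may differ between untreated and treated files, which bears on each comparison across ATRA and on the interaction. Summary lines of HTSeq were kept out of library sizes and tests. Each comparison used edgeR 4.0.16 in R 4.3.3 (filterByExpr, TMM, quasi-likelihood F test on the 4 libraries compared; all 8 for the interaction), with p-values adjusted by Benjamini-Hochberg over all genes tested and standard errors taken from the F statistic. A gene was called at an unadjusted P under 0.05 and a fold of at least 1.5. All 52 members passed the filter in each comparison. CPM used TMM-scaled library sizes. Transcript lengths, overlaps and coordinates came from GENCODE version 44 (hg38). The number of 2 libraries a group limits precision, and counts do not separate reads by strand or between near-identical copies. Members and lists were chosen with earlier results of these data known. Members were named when called or with an adjusted p under 0.05, when largest or smallest of their family, when highest or lowest per length, or as core genes, and list genes when called. Alternatives were other scalings, no filter, DESeq2 1.42.0, all libraries in 1 fit, a replicate block, each library left out, and other call rules. The procedure was tested on simulated counts. These did not include the difference between libraries in the share of reads outside genes, so that the test does not bear on it.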

Additional observations from a re-analysis of the deposited data

Results flagged for a closer look

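SNRPG was the 1 of 52 members called in the test of the difference in ATRA response between the lines, against 3.99% of all genes. Its log2 change with ATRA in shKDM3B minus that in scramble was -0.76 (SE 0.31, edgeR adjusted p = 1.0), with 235 and 158 CPM in the scramble+ATRA libraries. The value ranged from -1.02 to -0.43 when single libraries were left out, and it was -0.43 (edgeR adjusted p = 0.796) without scramble+ATRA replicate 1. The call was lost with scaling by library size alone and without any 1 of 6 of the 8 libraries. In the alternatives that kept every library, the value lay between -0.76 and -0.69.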

How the results depend on the processing

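For shKDM3B against scramble, the count of members called was 0 by every alternative except the omission of scramble replicate 2 or shKDM3B replicate 1, each with 1 (HNRNPDL), a range of 0 to 1. With single libraries left out, the counts ranged from 0 to 5 for shKDM3B+ATRA against scramble+ATRA, from 1 to 3 for scramble+ATRA against scramble, from 5 to 9 for shKDM3B+ATRA against shKDM3B and from 0 to 3 for the interaction. With a replicate block, 1 member was called in shKDM3B+ATRA against scramble+ATRA (SNRPD2) and 1 in scramble+ATRA against scramble (HNRNPLL), and the block changed no other call. Libraries with the same number deviated together with correlations of 0.39, 0.026, -0.075 and 0.18, and as nothing in the labels ties the numbers, the block was not used. By the edgeR adjusted p alone, 0, 0, 1, 12 and 0 members passed (in the order used in this paragraph), and by the unadjusted edgeR P alone 0, 6, 2, 18 and 1. In DESeq2, SNRPD2 had an adjusted p of 0.0102 for shKDM3B+ATRA against scramble+ATRA. For scramble+ATRA against scramble, no low-count filter and 1 fit of all 8 libraries each gave 1, and for the interaction library-size scaling gave 0. Of 393 recomputed values of the named members, 353 kept direction and side of the threshold, 20 lost and 11 gained the call, and 9 turned direction, all with a library left out and none for a value called in that comparison: HNRNPDL (-0.67 to 0.25), HNRNPU (-0.022 to 0.063), SNRPD1 (-0.14 to 0.35), SRSF10 (-0.54 to 0.039) and SRSF1 (-0.031 to 0.14) for shKDM3B against scramble, SNRPB2 (-0.042 to 0.39) for shKDM3B+ATRA against scramble+ATRA, and SRSF8 (-0.016 to 0.37) for scramble+ATRA against scramble. The cause was not tested. With 2 libraries a group, differences under about 1.5-fold were often not resolved.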
